A study of Mus musculus with 16 samples.

Results

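The 4 connexin genes described here, Gja1, Gja4, Gja5 and Gjc1, are those of heart muscle and of its vessels, and they were taken by name from a table of 16118 genes. All 4 were found, and the gene identifier of each is given below because Gjc1 is also an older symbol of Gjd3. They were measured by RNA sequencing in 16 libraries, from the atria and the ventricles of 8 male littermates, adult mice, with 4 libraries in each of 4 groups. All 8 mice were homozygous for floxed Meis1 and Meis2 (Meis1flox/flox and Meis2flox/flox). The idKO mice carried in addition 1 copy of the transgene alpha-MHC-MerCreMer (tg/wt), a tamoxifen-activated Cre recombinase under a promoter of cardiomyocytes, and the control mice carried none (wt/wt). The groups are idKO ventricle, control ventricle, idKO atrium and control atrium. Tissue was taken 2 weeks after tamoxifen, with the outflow tract removed. The age beyond adult is not given. Because the Cre acts in cardiomyocytes, the other cells of these tissues keep their Meis genes in the design, and because controls have no transgene, any effect of the transgene is part of each idKO difference.

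Connexins are membrane proteins that assemble into channels called gap junctions, through which ions pass directly from cell to cell. Gja1 encodes Cx43, the main connexin of working ventricular muscle, concentrated at the intercalated discs where muscle cells meet end to end. Gja5 encodes Cx40, known from atrial muscle, from the fast conduction fibres of the ventricles and from arterial endothelium. Gjc1 encodes Cx45, known from nodal and other conduction tissue and from vascular smooth muscle. Gja4 encodes Cx37, a connexin of endothelium. Cells of the conduction system and the vessels are a minority in a piece of whole chamber, so the chamber totals of Gja4, Gja5 and Gjc1 mix several cell types.

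The family is recognised by cysteines that lie in its extracellular loops and let the channels of neighbouring cells dock. The stretch that holds all cysteines of the first loop is shown for each gene because it is the part that all 4 share in length and layout, with the cysteine codons in capitals. The sequences are coding sequence of the GENCODE transcripts on GRCm38, each within the single coding exon, and span 36 bases.
Gja1: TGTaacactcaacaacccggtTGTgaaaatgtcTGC
Gja4: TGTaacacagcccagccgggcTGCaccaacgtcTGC
Gja5: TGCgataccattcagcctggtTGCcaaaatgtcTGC
Gjc1: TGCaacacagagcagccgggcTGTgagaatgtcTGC
They lie at chr10:56387706-56387741 on the plus strand, chr4:127312774-127312809 on the minus strand, chr3:97050788-97050823 on the plus strand and chr11:102800984-102801019 on the minus strand. Any pair was identical at 63.9% to 77.8% of the 36 bases, the least between Gja4 and Gja5 (23 bases) and the most between Gjc1 and either Gja1 or Gja4 (28 bases). The reading frames are 382, 333, 358 and 396 codons long for Gja1, Gja4, Gja5 and Gjc1.

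The genes lie apart in the genome. Gja1 (ENSMUSG00000050953) spans chromosome 10 from 56377330 to 56402513, Gja4 (ENSMUSG00000050234) chromosome 4 from 127311421 to 127314039, Gja5 (ENSMUSG00000057123) chromosome 3 from 96904693 to 97077416, and Gjc1 (ENSMUSG00000034520) chromosome 11 from 102799579 to 102819700, all on GRCm38. No other annotated gene overlaps Gja1, Gja4 or Gjc1. The long annotated span of Gja5 overlaps Gpr89 on the opposite strand, and the sources used here do not say whether counting used the strand, so reads from such overlaps cannot be told apart.

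Values are normalised read counts, in CPM (read counts scaled to a common effective library size), and the spread is the SD over 4 mice. The libraries held 13.1 to 21.8 M reads. Reads of mitochondrial genes took 29.0% ± 1.13 in idKO ventricles, 30.9% ± 0.742 in control ventricles, 17.2% ± 0.589 in idKO atria and 17.2% ± 0.768 in control atria. Marker genes followed the labelled chambers: 5 atrial cardiomyocyte markers summed to 38873 to 43135 in idKO atria and 34814 to 43685 in control atria, against 495.6 to 1664 in idKO ventricles and 192.3 to 235.6 in control ventricles. The targeted genes and the transgene also differed by chamber. Meis2 stood at 8.82 ± 0.848 in idKO ventricles and 26.8 ± 4.25 in control ventricles, and at 17.7 ± 1.64 in idKO atria and 20.0 ± 1.48 in control atria. Meis1 lay between 19.9 and 25.4 in idKO ventricles and between 26.8 and 28.4 in control ventricles, without overlap. That difference did not pass over all genes (log2 -0.24, limma adjusted p = 0.236). In atria Meis1 lay between 26.4 and 33.0 in idKO mice and between 25.7 and 32.4 in controls. Whether the floxed exons are counted in these totals is not given. Esr1, part of which is built into MerCreMer, read 3099 ± 574 in idKO ventricles and 186 ± 95.5 in idKO atria, against 0.967 ± 0.632 in control ventricles and 5.02 ± 0.895 in control atria.

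A gene is called here when its limma p, adjusted over all genes tested, is under 0.05. Gja1 in ventricles showed the one called genotype difference among the members. The 4 idKO ventricles held 198.8, 178.0, 209.1 and 217.7 CPM, against 522.7, 374.8, 415.3 and 432.1 CPM in the 4 control ventricles. Every idKO ventricle lay below every control ventricle, and the highest idKO value was 217.7 against a lowest control value of 374.8. These values rest on 2102 to 2762 reads per idKO library and 4128 to 6398 per control library, so counting error was small beside the spread of mice. Mean Gja1 was 201 ± 17.1 in idKO ventricles and 436 ± 62.5 in control ventricles (SD, n = 4 each), or 46.1% of the control level. On the log2(value + 1) scale it fell by 1.11 ± 0.09 (SE; 95% interval -1.31 to -0.91), with a limma p adjusted over 13144 genes of 2.12e-05, and ranked 13 by p among all genes tested.

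**Figure D1:**
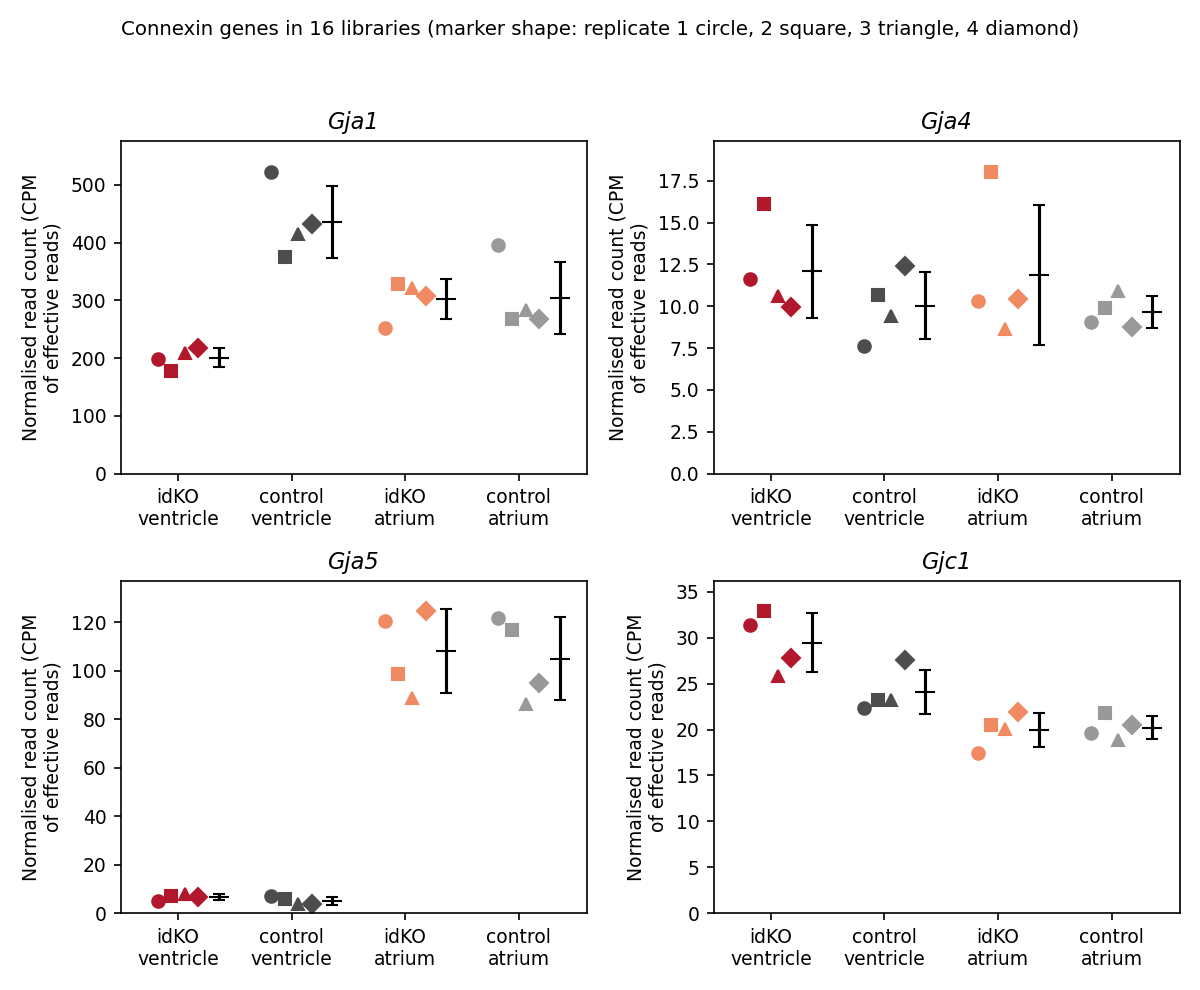
Normalised read counts (vertical axes, in CPM of effective reads, starting at 0) of Gja1, Gja4, Gja5 and Gjc1 in the 16 libraries, by group along the horizontal axis. Symbols are mice and black bars the mean ± SD of 4; Gja1 of idKO ventricles (178.0 to 217.7) lies below all control ventricles (374.8 to 522.7), and Gja5 of all atria lies above all ventricles.

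Of the 4 members, 1 was called lower and 0 higher in idKO ventricles. Over all genes tested there, 2.03% were called, 1.5% lower and 0.533% higher, and idKO and control ranges stood apart for 8.99%. With each library's reads scaled to all of its reads, the split of all called genes turned to 154 higher and 108 lower, and with mitochondrial reads left out to 108 higher and 142 lower, against 70 and 197 in the authors' scaling. Gja1 was lower in each of these scalings. Because these are whole chambers, fewer cells of a type and less RNA per cell cannot be told apart. The 7 general cardiomyocyte markers summed to 71507 to 82361 in idKO ventricles and 77193 to 83442 in control ventricles, ranges that overlap, and 0 of 7 were called (median log2 difference -0.04, against -0.01 over all genes). The 5 ventricular cardiomyocyte markers summed to 14648 to 16590 in idKO ventricles and 17488 to 18821 in control ventricles, without overlap. Their median log2 difference was -0.23, but 2 of the 5 differences were above 0. Of the 5 markers, 3 were not called (Myl2, Hey2 and Myl3) and 2 were called lower. The called markers were Fhl2, which encodes a LIM domain protein (793 ± 116 in idKO and 2206 ± 177 in control ventricles, limma adjusted p = 1.83e-06), and Irx4, a transcription factor of ventricular muscle (24.9 ± 4.32 and 38.7 ± 2.87, limma adjusted p = 0.00991). Of 4 atrial cardiomyocyte markers tested, 1 was called higher and 3 were not called (Myl7, Sln and Myl4). Only 2 of the 4 differences were above 0, with a median log2 difference of 0.01. The called marker was Nppa, which encodes atrial natriuretic peptide, at 1115 ± 499.9 in idKO ventricles and 185 ± 25.0 in control ventricles (limma adjusted p = 3.17e-04). The part of these markers in the Gja1 difference was not tested. Measured against the mean of the general markers within each library, Gja1 was 1.08 lower on the log2 scale in idKO ventricles (exact two-sided permutation p = 0.0286, n = 4 each, the smallest that 70 assignments allow; adjusted p = 0.102 over 32 such tests of ratios and shares, so this does not pass).

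Gjc1, the Cx45 gene, had 31.4, 32.9, 25.9 and 27.8 CPM in idKO ventricles, against 22.3, 23.3, 23.2 and 27.6 CPM in control ventricles. The idKO mice were mostly higher, but the highest control stood above the lowest idKO mouse. Mean Gjc1 was 29.5 ± 3.23 in idKO ventricles and 24.1 ± 2.37 in control ventricles (SD, n = 4 each), or 122% of control. The log2 difference was 0.28 ± 0.10 (SE; 95% interval 0.06 to 0.50), and it did not pass over all genes (limma adjusted p = 0.209). Against smooth muscle markers in the same library Gjc1 stood 0.42 higher on the log2 scale in idKO ventricles (exact two-sided permutation p = 0.0286, n = 4 each, adjusted p = 0.102 over 32 tests), and against cardiomyocyte markers 0.30 higher (exact p = 0.0857, adjusted p = 0.274). The exact p of the smooth muscle ratio was 0.0571 without any 1 of the idKO ventricles. None of the 7 smooth muscle markers was called, and their sums were 341.2 to 408.5 in idKO ventricles and 354.1 to 405.9 in control ventricles.

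Gja5, the Cx40 gene, was scarce in ventricles. It had 5.12, 7.07, 7.76 and 6.72 CPM in idKO ventricles, against 7.07, 5.66, 3.67 and 3.71 CPM in control ventricles, from 36 to 102 reads per library. The groups overlapped, and the means were 6.67 ± 1.12 and 5.03 ± 1.65 (SD, n = 4 each) for idKO and control. The log2 difference of 0.37 ± 0.20 (SE; 95% interval -0.05 to 0.80) was not called (limma adjusted p = 0.404). Markers of the conduction system, where ventricular Cx40 is known to be found, summed to 91.5 to 114.4 in idKO ventricles and 117 to 131.9 in control ventricles. Of the 9 tested, 2 were called lower and 7 were not called. The median log2 difference was -0.14, and 3 of the 9 differences were above 0. The called markers were Hcn4, a pacemaker channel (3.28 ± 1.37 against 8.98 ± 2.53 in controls, SD, n = 4 each, limma adjusted p = 0.0133), and Cntn2, a cell adhesion molecule of conduction fibres (3.07 ± 1.46 against 8.23 ± 1.91 in controls, limma adjusted p = 0.0236). Arterial endothelial markers summed to 157.3 to 182.9 in idKO ventricles and 143.9 to 164.5 in control ventricles, and 0 of 9 were called (7 differences above 0). Against arterial, endothelial and cardiomyocyte markers in the same library, Gja5 stood 0.25, 0.30 and 0.40 higher on the log2 scale. None passed (exact permutation tests, adjusted p = 0.731, 0.563 and 0.533 over 32 tests, n = 4 each). The part of the arterial and conduction markers in the Gja5 values was not tested.

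Gja4, the endothelial Cx37 gene, measured 11.7, 16.1, 10.6 and 9.98 CPM in idKO ventricles, against 7.64, 10.7, 9.41 and 12.4 CPM in control ventricles. Its log2 difference was 0.24 ± 0.17 (SE; 95% interval -0.12 to 0.60) and was not called (limma adjusted p = 0.538). In atria it measured 10.3, 18.0, 8.65 and 10.4 CPM in idKO mice, against 9.08, 9.89, 10.9 and 8.79 CPM in controls. The same idKO mouse, replicate 2, was the highest in both chambers. That mouse also had the highest pericyte sum of the idKO mice (946.7 in ventricle and 408.8 in atrium, against at most 730.2 and 336.4 in the other idKO mice), the highest endothelial sum (892.3 and 1075) and the highest fibroblast sum (1384 and 1953). Without it the log2 difference of Gja4 was 0.11 in ventricles and 0.02 in atria, against 0.24 and 0.22 with it. Of 8 endothelial markers 0 were called in either chamber, with a median log2 difference of 0.08 in ventricles and 0.165 in atria. Their sums were 800.8 to 892.3 in idKO and 789.7 to 846.1 in control ventricles, and 950.3 to 1075 in idKO and 851 to 942.7 in control atria, where the ranges stood apart, and their part in the Gja4 values was not tested. Measured against endothelial markers in the same library, Gja4 differed by 0.17 in ventricles and 0.09 in atria on the log2 scale (exact permutation tests, adjusted p = 0.731 and 0.914 over 32 tests, n = 4 each).

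In atria 0 of the 4 members were called, and 0.0207% of 14523 genes were (3 genes by limma, 12 by DESeq2, with 670 at an unadjusted p under 0.05); idKO and control ranges stood apart for 2.82% of genes and for 0 members. Gja1 had 252.4, 328.1, 321.1 and 308.3 CPM in idKO atria, against 396.0, 267.9, 283.3 and 267.2 CPM in control atria. One control atrium, replicate 1, was the highest of all 8, and the other 3 controls lay among or just above the lowest idKO atrium. The means were 302 ± 34.4 in idKO atria and 304 ± 62.1 in control atria (SD, n = 4 each). The log2 difference was 0.007 ± 0.12 (SE), and its 95% interval, -0.26 to 0.28, does not reach the ventricular difference of -1.11. Leaving out that control atrium moved the difference to 0.14.

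Atrial Gja5 had 120.6, 98.6, 88.5 and 124.5 CPM in idKO mice, against 121.9, 116.9, 86.1 and 94.8 CPM in controls. Its log2 difference was 0.04 ± 0.13 (SE; 95% interval -0.24 to 0.32; limma adjusted p = 0.997). Atrial Gjc1 had 17.4, 20.5, 20.0 and 21.9 CPM in idKO mice, against 19.6, 21.8, 18.9 and 20.5 CPM in controls, with a log2 difference of -0.02 ± 0.09 (SE; 95% interval -0.23 to 0.19; limma adjusted p = 0.997).

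The difference between chambers was tested directly. The genotype effect on Gja1 in atria minus that in ventricles was 1.12 ± 0.17 on the log2 scale (SE; 95% interval 0.76 to 1.47; limma adjusted p = 0.00341, rank 14 of 14871 genes). The genotype difference was thus more negative in ventricles than in atria, by a fit that took the chambers of a mouse as independent. Of all genes tested 0.296% were called for this term, 44 genes, and 71 or 102 with the mouse as a random or a fixed block; Gja1 was called in each. It was also called under all other settings and with any 1 library left out. The targeted genes and the transgene also differed between chambers: Meis2 stood at 17.7 in idKO atria against 8.82 in idKO ventricles, and Meis1 at 29.65 against 23.05. Esr1, part of which is in the transgene, ran the other way, at 186 against 3099. Their part in the Gja1 difference was not tested. For Gja4, Gja5 and Gjc1 the term was -0.02, -0.33 and -0.30, and none was called (limma adjusted p = 0.995, 0.909 and 0.727).

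**Figure D2:**
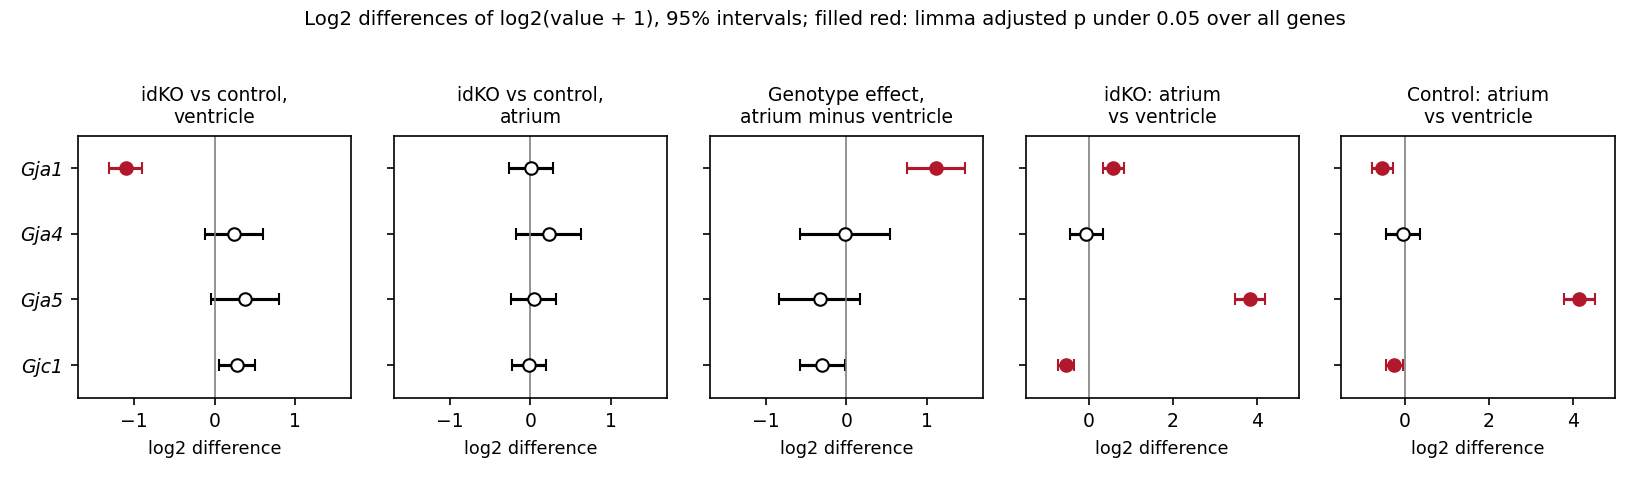
Log2 differences (horizontal axes) with 95% intervals for each member, in 5 panels: idKO against control in ventricle and in atrium, the difference of those effects, and atrium against ventricle in idKO and in control mice. Filled red points passed a limma adjusted p of 0.05 over all genes: Gja1 in every panel but the atrial one (-1.11 in ventricles and 1.12 for the difference of effects), and Gja5 and Gjc1 in both chamber panels; the control chamber differences of Gja1 (-0.53), Gja4 (-0.03) and Gjc1 (-0.24) change sign when libraries are scaled to all of their reads.

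The order of the chambers for Gja1 was opposite in the 2 genotypes. Within each idKO mouse the atrium held more Gja1 than the ventricle, with ratios of 1.27, 1.84, 1.535 and 1.42. Within each control mouse it held less, with ratios of 0.758, 0.715, 0.682 and 0.618. The idKO chambers did not overlap in Gja1 and differed by a log2 of 0.58 ± 0.12 (SE; limma adjusted p = 4.29e-04). The control chambers differed by -0.53 ± 0.12 (SE; limma adjusted p = 9.67e-04), but this direction rests on the scaling: the value was -0.23 (limma adjusted p = 0.120) with mitochondrial reads left out and 0.03 (limma adjusted p = 0.813) as a share of all reads. Those scalings move the median of all genes by 0.29 and 0.51 in control chambers and by 0.25 and 0.44 in idKO chambers. The idKO difference of Gja1 was larger under them, and the difference between the genotypes is the same contrast as the interaction above.

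**Figure D3:**
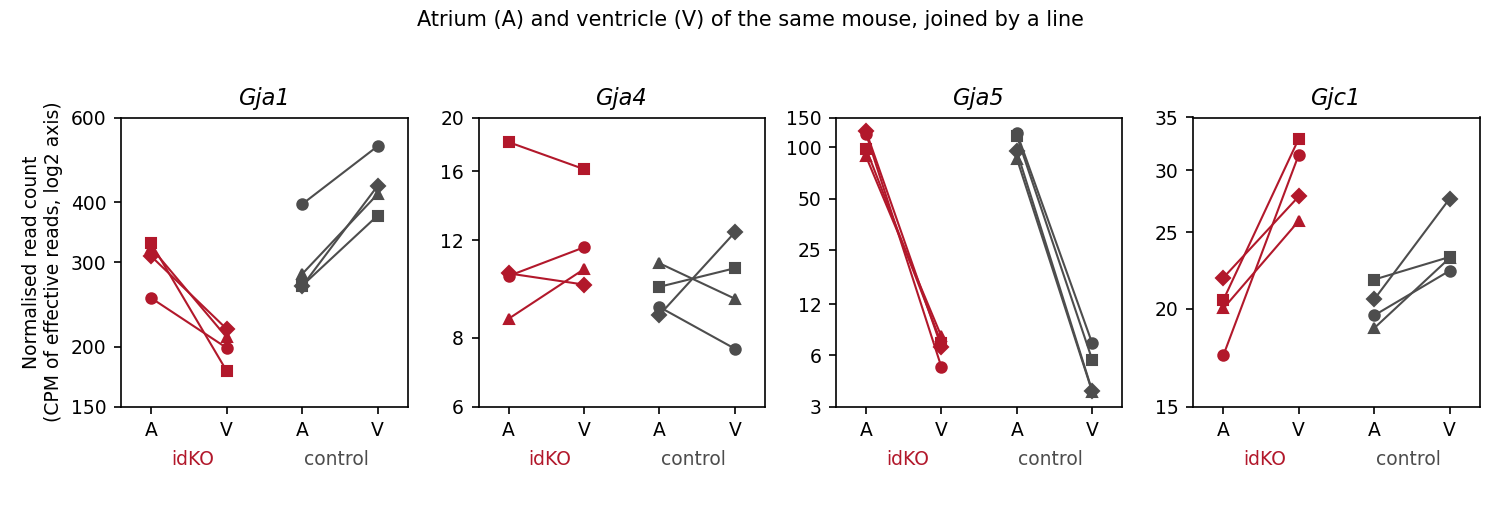
Normalised read count (vertical axes, CPM of effective reads on a log2 scale) of each member in the atrium (A) and ventricle (V) of the same mouse, joined by a line, idKO mice in red and control mice in grey. The Gja1 lines run down to the ventricle in 4 of 4 idKO mice and up in 4 of 4 controls in the authors' scaling (in controls the mean difference is 0.03 as a share of all reads); the Gja5 lines fall steeply in all 8 mice.

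Gja5 separated the chambers in both genotypes. It averaged 108 ± 17.3 in idKO atria against 6.67 ± 1.12 in idKO ventricles, a ratio of 16.2 (log2 difference 3.83 ± 0.17 SE, limma adjusted p = 1.45e-12), and 105 ± 17.2 in control atria against 5.03 ± 1.65 in control ventricles, a ratio of 20.9 (4.16 ± 0.17 SE, limma adjusted p = 3.65e-13; SD, n = 4 each). All 8 mice had more in the atrium, by 11.4 to 23.5 times in idKO mice and 17.2 to 25.6 times in controls. Gjc1 went the other way, with 20.0 ± 1.86 in idKO atria against 29.5 ± 3.23 in idKO ventricles (log2 difference -0.54 ± 0.10 SE, limma adjusted p = 1.02e-04) and 20.2 ± 1.25 in control atria against 24.1 ± 2.37 in control ventricles (-0.24 ± 0.10 SE, limma adjusted p = 0.0394). As a share of all reads these Gjc1 differences were -0.08 in idKO mice (limma adjusted p = 0.517) and 0.30 in controls (limma adjusted p = 0.0143), so the control direction turns with the scaling. The control call was also lost in edgeR and DESeq2. Gja4 had no called difference, with 11.9 ± 4.20 in idKO atria against 12.1 ± 2.78 in idKO ventricles and 9.67 ± 0.944 in control atria against 10.03 ± 2.01 in control ventricles (log2 -0.05, 95% interval -0.45 to 0.34, limma adjusted p = 0.834, and -0.03, 95% interval -0.43 to 0.36, limma adjusted p = 0.892), while as a share of all reads it was 0.38 and 0.47 higher in atria on the log2 scale.

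In idKO mice 3 of the 4 members were called between chambers, 2 higher in atria and 1 lower. Of all genes 53.8% were called there, 26.8% higher and 27.1% lower, and 47.2% had chambers that did not overlap. In controls 3 of the 4 were called, 1 higher and 2 lower, where 56.9% of all genes were called, 28.2% higher and 28.7% lower, and 50.7% did not overlap. A call between chambers is therefore common, and being called does not set a member apart from that background. By p, Gja5 ranked 95 of 14871 genes in idKO mice and 86 in controls. With libraries scaled to all of their reads the split of all called genes was 9254 higher and 1545 lower in idKO mice and 9879 and 1388 in controls.

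Levels of different connexin genes were compared per kb of transcript, using the exons of the coding transcripts matched to RefSeq. Gja1 was the highest in every group, with 65.4 ± 5.57 CPM per kb in idKO ventricles, 142 ± 20.3 in control ventricles, 98.5 ± 11.2 in idKO atria and 98.9 ± 20.2 in control atria. In ventricles Gjc1 came next (10.8 ± 1.19 in idKO and 8.86 ± 0.870 in control), then Gja4 (7.18 ± 1.65 and 5.95 ± 1.19) and Gja5 (2.14 ± 0.359 and 1.62 ± 0.529). The ranges of Gjc1 and Gja4 overlapped in idKO ventricles (lowest Gjc1 9.502, highest Gja4 9.57) and did not in control ventricles. In atria Gja5 took the place after Gja1 (34.8 ± 5.57 in idKO and 33.7 ± 5.53 in control), ahead of Gjc1 (7.34 ± 0.684 and 7.42 ± 0.460) and Gja4 (7.05 ± 2.49 and 5.74 ± 0.560).

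The make-up of the 4 transcripts, which does not depend on the scaling of libraries, differed in ventricles without overlap but not after adjustment. Gja1 made up 76.3% ± 3.96 of the summed per-kb level in idKO ventricles and 89.5% ± 1.80 in control ventricles (SD, n = 4 each). Gjc1 made up 12.7% ± 1.78 and 5.66% ± 0.866, Gja4 8.45% ± 2.25 and 3.84% ± 1.01, and Gja5 2.51% ± 0.426 and 1.02% ± 0.293 in idKO and control ventricles. For each of the 4 shares the groups did not overlap (exact two-sided permutation p = 0.0286, n = 4 each, the smallest possible; adjusted p = 0.102 over 32 tests, which does not pass). Shares are tied to each other, so a lower Gja1 alone raises the other shares. On a log2 scale the ratio to Gja1 was 1.40 higher for Gjc1, 1.38 higher for Gja4 and 1.56 higher for Gja5 in idKO ventricles. In atria Gja1 made up 66.6% ± 4.41 in idKO mice and 67.6% ± 3.62 in controls, and Gja5 23.7% ± 4.57 and 23.2% ± 2.80 (exact permutation p = 0.771 and 0.914, n = 4 each).

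**Figure D4:**
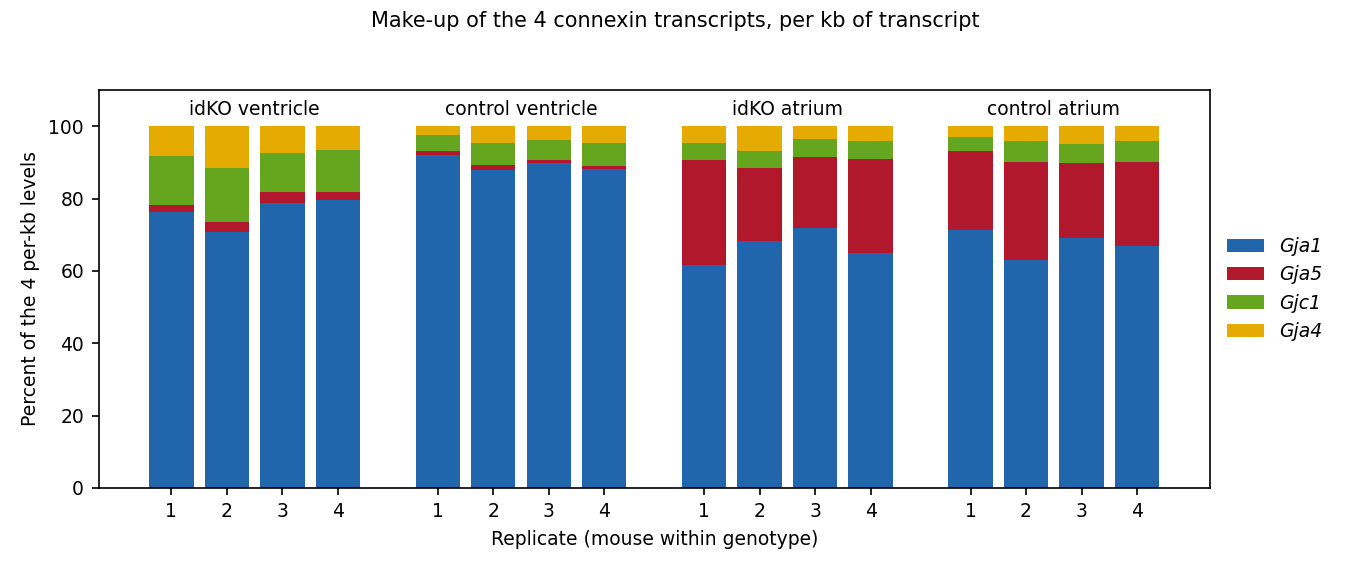
Percent of the summed per-kb level of the 4 connexin transcripts (vertical axis) taken by each gene in each of the 16 libraries, grouped as idKO ventricle, control ventricle, idKO atrium and control atrium. Gja1 fills 70.8% to 79.5% of the bar in idKO ventricles and 88.0% to 91.9% in control ventricles, and Gja5 takes 19.6% to 29.1% in idKO atria and 20.8% to 27.1% in control atria.

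Of 19 other connexin and pannexin genes, 7 were analysed here. Pannexins are channel proteins related in shape to connexins. In ventricles only Gja3 and Panx1 reached the level for testing, and 0 were called: Gja3 measured 24.4 ± 2.72 in idKO and 27.4 ± 3.94 in control ventricles, and Panx1 2.96 ± 0.572 and 2.05 ± 0.305. In atria 0 of 7 were called. The other 5 reached it only with the atria in the fit, so no test between chambers is given for them. Panx2 is such a gene, and measured 13.8 ± 1.05 in idKO atria against 0.963 ± 0.544 in idKO ventricles, from 3 to 17 reads per ventricle, and 14.3 ± 2.42 in control atria against 0.731 ± 0.333 in control ventricles, from 4 to 12 reads per ventricle. Between chambers Panx1 was called higher in atria in both genotypes, at 4.99 ± 1.87 in idKO atria against 2.96 ± 0.572 in idKO ventricles (limma adjusted p = 0.0349) and 3.81 ± 0.465 in control atria against 2.05 ± 0.305 in control ventricles (limma adjusted p = 0.0120). Gja3 was called in idKO mice, at 34.3 ± 10.1 in atria against 24.4 ± 2.72 in ventricles (limma adjusted p = 0.0171), and not in controls, at 33.1 ± 3.83 against 27.4 ± 3.94 (limma adjusted p = 0.138).

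The partners of Cx43 at the intercalated disc were read as a list of 22 genes, all tested. In idKO ventricles 2 were called lower, 0 higher and 20 neither, where 2.03% of all genes were called. The list's median log2 difference was -0.05, against -0.01 over all genes. Ctnna1, the catenin that ties cadherins to actin, fell to 602 ± 12.2 in idKO ventricles, against 874 ± 44.1 in control ventricles (SD, n = 4 each; log2 difference -0.53, limma adjusted p = 1.35e-04). Tmem65, a membrane protein of the disc reported in mice to bind Cx43, fell to 307 ± 25.3, against 384 ± 11.9 in controls (-0.33, limma adjusted p = 0.0199). Both kept their sign in each scaling. The nearest of the others were Xirp2 (942 ± 66.2 in idKO and 781 ± 49.0 in control, limma adjusted p = 0.0595), Dsp (1435 ± 99.8 and 1713 ± 131, limma adjusted p = 0.0993) and Cxadr (60.0 ± 5.62 and 49.1 ± 3.45, limma adjusted p = 0.110). Tjp1, which encodes the scaffold ZO-1, and the cadherin gene Cdh2 were among the 20.

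In atria 0 of the 22 disc genes were called, with 5 of 22 differences above 0 and a median of -0.09. The nearest were Ctnna1 (800 ± 28.8 in idKO and 885 ± 52.9 in control), Ank2 and Xirp1, each with a limma adjusted p of 0.966. The difference of the genotype effect between chambers was called for 1 of the 22, Ctnna1 (log2 0.39 ± 0.08 SE, limma adjusted p = 0.0321). Between chambers, 7 disc genes were higher and 14 lower in idKO atria, and 5 higher and 14 lower in control atria. Over all genes, 53.8% were called in idKO mice and 56.9% in controls. Of the calls of disc genes, 2 in idKO mice and 5 in controls change sign as a share of all reads.

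**Figure D5:**
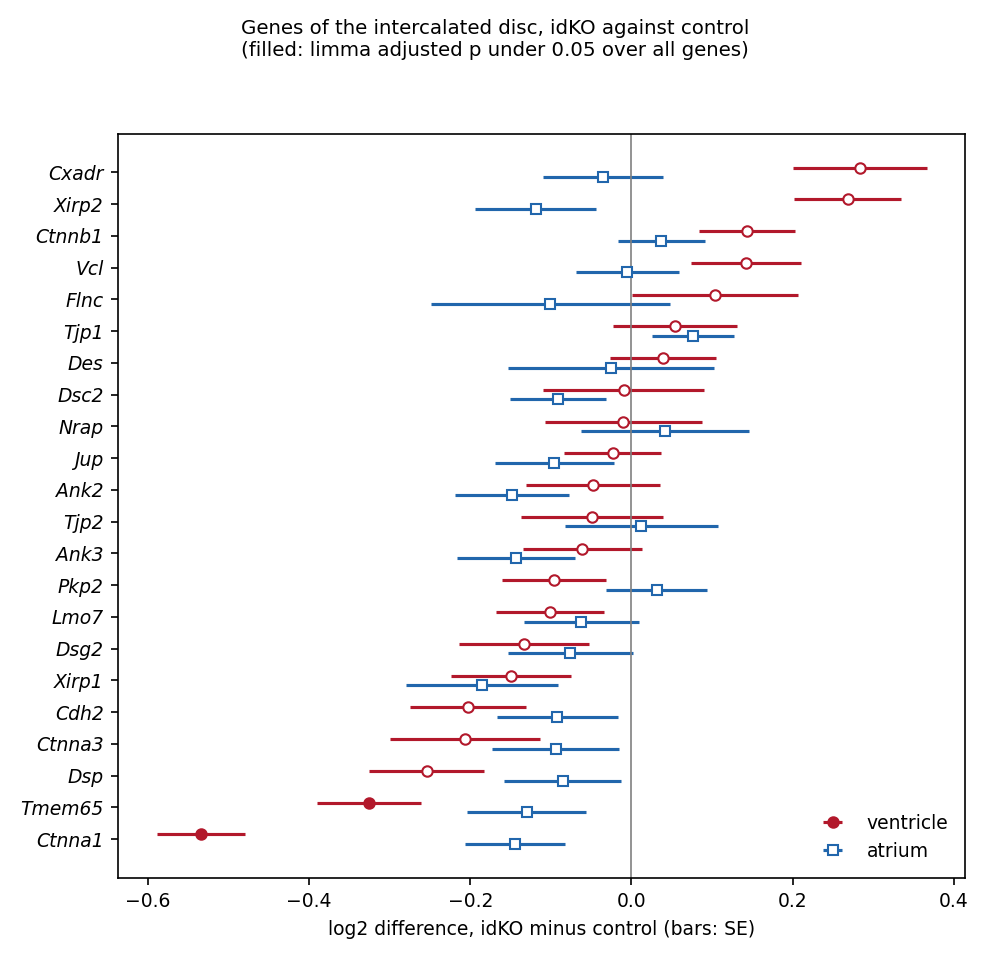
Log2 difference, idKO minus control, with SE (horizontal axis) for 22 genes of the intercalated disc in ventricle (circles) and atrium (squares), ordered by the ventricular value. Ctnna1 (-0.53) and Tmem65 (-0.33) are the filled points that passed a limma adjusted p of 0.05, both in ventricles.

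Among 24 genes known to traffic, modify or degrade connexins, 1 was called in idKO ventricles, where 2.03% of all genes were called. Prkca, a protein kinase C that phosphorylates Cx43, fell to 17.0 ± 1.24, against 24.4 ± 2.11 in controls (SD, n = 4 each; log2 difference -0.50 ± 0.10 SE, limma adjusted p = 0.0186). The 23 others included Cnst, which encodes consortin, a receptor for connexins on their way to the membrane (88.7 ± 4.84 in idKO and 102 ± 6.30 in control), the caveolin gene Cav3 (54.7 ± 2.42 and 66.2 ± 4.42) and the phosphatase gene Ppp1ca (238 ± 6.07 and 258 ± 5.11). The list's median log2 difference was 0.03. In atria 0 of 24 were called, and 0 of 24 for the difference between chambers' effects. Between chambers, 6 were higher and 8 lower in idKO atria and 7 higher and 9 lower in control atria, of which 5 and 6 change sign as a share of all reads. Over all genes, 53.8% were called between chambers in idKO mice and 56.9% in controls.

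Of 22 transcription factors reported to act on connexin genes, 20 were tested in ventricles, and 1 was called, where 2.03% of all genes were called. Tbx20, a T-box factor of heart muscle, rose to 147 ± 13.6 in idKO ventricles, against 109 ± 8.91 in controls (SD, n = 4 each; log2 difference 0.42 ± 0.08 SE, limma adjusted p = 0.0144). Irx3, reported in mice to repress Gja1 and to raise Gja5 in ventricular conduction fibres, measured 40.4 ± 7.27 in idKO and 52.7 ± 6.58 in control ventricles (limma adjusted p = 0.138). Hopx (393 ± 34.4 and 425 ± 20.9) and Jun (68.0 ± 1.93 and 60.8 ± 11.4) came next. In atria 0 of 21 were called, with Hand2 (50.7 ± 2.66 in idKO and 41.8 ± 3.398 in control), Irx3 and Tbx18 nearest. Between chambers, Tbx5, an activator of Gja5 in mice, stood at 235 ± 32.8 in idKO atria against 30.2 ± 1.64 in idKO ventricles, and at 243 ± 10.9 in control atria against 27.5 ± 2.77 in control ventricles (limma adjusted p = 4.16e-15 and 1.80e-15). Irx3 ran the other way, at 3.65 ± 1.24 in idKO atria against 40.4 ± 7.27 in idKO ventricles and 1.93 ± 0.867 in control atria against 52.7 ± 6.58 in control ventricles. In all, 10 factors were higher and 6 lower in idKO atria, and 12 higher and 6 lower in control atria. Over all genes, 53.8% were called in idKO mice and 56.9% in controls. Of the factors counted higher, Shox2 reached the level for testing only with the atria in the fit, so that it had to differ. Of the calls of factors, 2 in each genotype change sign as a share of all reads: Gata4 and Jun in idKO mice, and Gata4 and Hand2 in controls.

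The promoter of Gja1 is shown because this gene alone among the members was called between genotypes, and because the deleted genes encode DNA-binding factors. The 250 bases before the RefSeq start, chr10:56377050-56377299 on the plus strand of GRCm38.p6, were searched on both strands, with the one match in capitals.
Gja1: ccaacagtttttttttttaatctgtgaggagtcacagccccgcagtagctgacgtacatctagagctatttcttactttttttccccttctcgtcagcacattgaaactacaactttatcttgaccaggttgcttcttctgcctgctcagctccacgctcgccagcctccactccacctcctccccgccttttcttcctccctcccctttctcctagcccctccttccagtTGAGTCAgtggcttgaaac
The capitals mark TGAGTCA, a match to the AP-1 motif TGANTCA that begins 19 bases before the start, and 6.75% of 32851 promoter windows hold that motif. The MEIS core TGACAG, found in 15.9% of windows, the T-box motif GGTGTG, found in 16.3%, and the NKX2-5 core AAGTG, found in 40.7%, had no match in this window. The windows of Gja4 and Gja5 held none of the 4 motifs except AAGTG, once in Gja5. Gjc1 had no window in the set of promoters used, so it was not searched. The motifs do not overlap one another in these windows, and a match or its absence is a description of these letters only.

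The genes whose pattern over the 16 libraries lay nearest to each member were found by the root-mean-square (RMS) difference of log2 values, each gene centred on its own mean, over 14871 genes. Nearest to Gja1 were Clasp1, which encodes a microtubule-binding protein (RMS 0.22), Meis2 itself (0.22), Nebl, which encodes nebulette of the Z-disc (0.25), and Ryr2, the calcium release channel (0.25). Clasp1 averaged 199.5 in idKO ventricles and 340 in control ventricles, and Ryr2 1485 and 2342. Nearest to Gja5 were Tpm2, a tropomyosin (0.25), Cd207 (0.25), Gpx3, a secreted glutathione peroxidase (0.27), and Peg3 (0.32), all far higher in atria, as with Gpx3 at 3059 in idKO atria against 228 in idKO ventricles. Cd207 averaged 0.172 in idKO ventricles and 0.123 in control ventricles. It reached the level for testing only through the atria, so that it had to be higher there. Nearest to Gjc1 were Tspan13, Fadd, Trim24 and Ccdc141 (0.11 to 0.12), and nearest to Gja4 were Cyth3, Ddx60, Thsd1 and Nid1 (0.18 to 0.19), the last a basement membrane protein. These values describe likeness of level only.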

How the data were processed

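Polyadenylated RNA was sequenced, per the labels' protocols, from 20 ng of RNA, with single reads 60 bases long. Cutadapt, RSEM 1.3.1 and the build GRCm38 are named, per the submitters' processing notes; the scaling step is not given. The deposited values are a normalised signal: each equals a whole number of reads plus 0.5 over an effective library size, in CPM, and with that step 100% of values came out whole within 0.01. Effective sizes averaged 0.687 of the reads in idKO ventricles, 0.639 in control ventricles, 0.958 in idKO atria and 0.947 in control atria.

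Genes with at least 4 libraries of a fit at 1 CPM of the summed values were tested with limma 3.58.1 (R 4.3.3, trended prior, two-sided) on log2(value + 1), which understates changes of low genes, with Benjamini-Hochberg adjustment over all genes tested and a threshold of 0.05. Each chamber was fitted on 8 libraries, and the interaction and the chamber comparisons on 16. The test was checked on simulated data. Ratios used exact permutation tests. The members and gene lists were chosen with earlier results of these data known. A gene of the intercalated disc list and a gene of the transcription factor list are not reported here. Named from each list were called genes, at most 6 by p, and the 3 nearest others. Mouse numbers pair the chambers of 1 animal: deviations correlated at 0.188 to 0.325 over 14871 genes, and 8 of 8 mice matched themselves best. Replicates differed by more than sampling noise (mean chi-square per gene 7.77 to 16.1). Alternatives were pseudocount, filter, scaling, prior, weights, edgeR 4.0.16, DESeq2 1.42.0, the mouse block and each library left out.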

Additional observations from a re-analysis of the deposited data

Results flagged for a closer look

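Gja1 in control atria had 1 library, replicate 1, far from the other 3: it stood at 396 CPM, and the others lay between 267 and 283. The log2 level of Gjc1 relative to cardiomyocyte markers in control ventricles also had 1 library apart, at -8.10. In all, 80 groups of 4 were examined for such a library and 2 had one, where chance gives about 1 in 20. The genotype effect on Gja1 differed between chambers: the effect in atria minus that in ventricles was 1.12 on the log2 scale, by the interaction term of the limma fit over 16 libraries.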

How the results depend on the processing

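Of 57 results, 32 kept direction and side of the threshold under every alternative; these include Gja1 in ventricles (log2 -1.18 to -1.003) and its genotype effect between chambers (1.02 to 1.25). In atria, Gja1 was -0.0080 in edgeR and -0.0055 in DESeq2. For Gja4 the effect between chambers was 0.0059 in edgeR, 0.018 in DESeq2 and 0.00036 with array weights. As a share of all reads, the control chamber difference was 0.034 for Gja1, 0.47 for Gja4 and 0.30 for Gjc1, and the idKO one 0.38 for Gja4 and -0.075 for Gjc1. With mitochondrial reads left out the control values were -0.23 for Gja1, 0.24 for Gja4 and 0.051 for Gjc1, and the idKO value 0.19 for Gja4. The control Gjc1 call was lost in edgeR (-0.21) and DESeq2 (-0.24). Genes called in ventricles (267) numbered 148 without the filter, 537 in DESeq2 and 89 without a trend, and 132 to 359 with 1 library left out; in atria (3) 12 in DESeq2 and 2 to 4. Interaction calls (44) numbered 22 as a share of all reads, 86 in DESeq2, 24 without a trend, and 26 to 46 with 1 library left out. With the mouse as a replicate block they numbered 71 (random) or 102 (fixed), and the block changed no call of a member.

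Leaving out each library in turn gave, for idKO against control in atria, -0.047 to 0.14 for Gja1, -0.047 to 0.13 for Gja5 and -0.062 to 0.042 for Gjc1, and for the effect of Gja4 between chambers -0.22 to 0.12. Control chamber differences ran from -0.28 to -0.18 for Gjc1 (limma adjusted p = 0.0326 to 0.144) and -0.15 to 0.066 for Gja4, and the idKO one of Gja4 from -0.26 to 0.083. In atria the log2 ratio to Gja1 ran from -0.11 to 0.16 for Gja5 and -0.17 to 0.063 for Gjc1, and the shares differed by -2.69 to 0.746 points for Gja1, -1.35 to 1.81 for Gja5 and -0.622 to -0.0196 for Gjc1, the last with an exact p of 0.0286 without control atrium replicate 1. The ventricular Gja4 share differed by 3.53 to 5.21 points, with an exact p of 0.0571 without control ventricle replicate 1. Against markers on the log2 scale, in atria, Gja1 ran from -0.0066 to 0.27 (cardiomyocyte), Gja4 from -0.084 to 0.19 (endothelial), -0.10 to 0.20 (arterial) and -0.063 to 0.40 (smooth muscle), and Gjc1 from -0.12 to 0.073 (smooth muscle). In ventricles Gja4 ran from -0.00090 to 0.22 (arterial) and Gjc1 from 0.38 to 0.49 (smooth muscle). Limits: 4 mice a group, whole chambers, transcripts and not protein, 36 to 102 reads for ventricular Gja5, and wide intervals of some uncalled differences. For idKO against control, the 95% intervals reached a log2 difference of 0.80 for ventricular Gja5 and 0.63 for atrial Gja4. The causes of these changes with the settings were not tested.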

Other observations

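Control mouse 1 had the highest Gja1 of the controls in both chambers (522.7 CPM in ventricle and 396.0 in atrium) and also the highest Gja5 (7.07 and 121.9). Among idKO mice, replicate 1 had the lowest Gja5 in ventricle (5.12), while its atrial Gja5 (120.6) was above those of replicates 2 and 3. Macrophage markers summed to 176.4 to 202.8 in idKO ventricles and 157.1 to 166.1 in control ventricles without overlap, and 0 of 5 were called.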
